A study of Mus musculus with 4 samples.

Results

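The genes described here are 10 genes of the mouse pluripotency network: Pou5f1, Nanog, Sox2, Klf4, Dppa2, Dppa3, Dppa4, Tcl1, Utf1 and Lin28a. They were chosen by name, with earlier results of these data known, and are 10 of the 26796 genes that could be placed by strand. Their RefSeq gene spans in mm10, with 5 kb on either side, held 171 of the 1566473 genomic windows of 1 kb in which at least 3 CpGs had a value in every sample. DNA methylation was measured by whole-genome bisulfite sequencing in male germ cells from testes of 21-day-old mice, with libraries made by post-bisulfite adaptor tagging, in which adaptors are joined after the bisulfite step. The 2 control samples were Np95fl/fl, and the 2 knockout samples were Np95fl/fl:Stra8-Cre. All 4 samples therefore carried floxed alleles of Np95, the gene also called Uhrf1, whose product brings the maintenance methyltransferase to newly replicated CpGs. Stra8-Cre expresses the recombinase in male germ cells from the stage before meiosis, and no Cre-only group was analysed here, so Cre activity and the loss of Np95 cannot be told apart. The cells came from hand-picked tubules passed through a mesh, with no sort by stage stated. Whether the 2 replicates of a genotype were different animals is not stated, so p-values here reflect the spread among these 4 samples, and that spread may be technical. The main limma p-values also rest on a spread shared across regions, not on that of each region alone.

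Pou5f1 (Oct4), Nanog, Sox2 and Klf4 are transcription factors that hold embryonic stem cells in the pluripotent state, and Pou5f1 and Nanog are also expressed in primordial germ cells. Dppa2 and Dppa4 bind chromatin as a pair, and Dppa3 (Stella) is a germ cell and oocyte protein known to keep Np95 off chromatin. Tcl1 is a coactivator of Akt kinases, Utf1 is a chromatin protein of stem cells and spermatogonia, and Lin28a is an RNA-binding protein that blocks maturation of let-7 microRNAs. Methylation of promoters with intermediate or low CpG content, Nanog among them, is known to accompany their silencing outside pluripotent cells, whereas CpG islands usually stay unmethylated whether or not the gene is expressed. Only methylation was analysed, so the transcript level of these genes in the samples is not known here.

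Methylation was given as a percentage for each CpG cytosine, and 60.2% of the 37230584 listed cytosines had a value in all 4 samples. Over those cytosines the controls averaged 69.1% and 72.9%, and the knockouts 38.1% and 38.4%. The read depth behind single values was not in the table, so no counting interval can be given. In bulk DNA, fewer cells with a methylated region and fewer methylated CpGs in each cell cannot be told apart. At the promoters of 10 male germ cell genes, such as Ddx4 and Dazl, the mean was 7.28% and 6.58% in the controls against 15.9% and 13.1% in the knockouts, and every one was under 20% in the controls. Promoters of maternally methylated imprinted genes, which sperm lack and somatic cells carry on one copy, averaged 13.7% and 12.0% in the controls against 12.3% and 9.98% in the knockouts over 8 of 10 listed genes, including Snrpn at 65.3% over only 5 CpGs in the controls. Without Snrpn the mean of the other 7 was 6.30% and 4.44% in the controls against 8.88% and 7.06% in the knockouts. At 4 of the 8 both knockouts were above both controls and at 1, Snrpn, below, against 7.72% and 67.7% of all promoters. Of promoters under 20% in the controls, 14.8% had both knockouts above. The imprinted promoters were placed by the RefSeq gene start. Whether each covers the maternally methylated region, Snrpn included, was not checked. Of the 7 Sertoli cell genes 3 could be read, with control levels from 3.79% to 86.1%, and of the 6 Leydig cell genes 4, from 7.28% to 94.3%. Methylation at promoters does not measure how many such cells were present, and their part in the results below was not tested.

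The promoter sequences below are shown for their CpG content before the start. In the RefSeq promoter table it was lower at Nanog, the one heavily methylated member, than at the other 6 members listed. Dppa2, Dppa3 and Dppa4 are not in that table. From 1000 bp before to 500 bp after the start, they had 16, 28 and 21 measured CpGs, against 26 at Nanog. Their control means there were 24.6%, 8.42% and 8.62%, so CpG content does not set Nanog apart from all members. Each sequence is the 250 bases before the RefSeq start in GRCm38.p6 (mm10), 5′ to 3′ on the gene's strand, with CpGs in capitals. Nanog is at chr6:122707239-122707488, plus strand. Pou5f1 is at chr17:35505782-35506031, plus strand. Tcl1 is at chr12:105222738-105222987, minus strand. Sox2 is at chr3:34649745-34649994, plus strand.
Nanog: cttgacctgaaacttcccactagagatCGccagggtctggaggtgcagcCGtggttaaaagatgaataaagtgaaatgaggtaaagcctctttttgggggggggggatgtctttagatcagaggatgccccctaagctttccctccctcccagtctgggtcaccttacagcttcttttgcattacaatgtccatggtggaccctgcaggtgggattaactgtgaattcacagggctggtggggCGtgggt
Pou5f1: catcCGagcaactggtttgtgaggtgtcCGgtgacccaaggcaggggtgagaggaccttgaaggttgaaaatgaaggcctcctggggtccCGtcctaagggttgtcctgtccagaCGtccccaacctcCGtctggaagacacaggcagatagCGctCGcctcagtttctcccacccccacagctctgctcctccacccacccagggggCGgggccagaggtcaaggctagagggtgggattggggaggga
Tcl1: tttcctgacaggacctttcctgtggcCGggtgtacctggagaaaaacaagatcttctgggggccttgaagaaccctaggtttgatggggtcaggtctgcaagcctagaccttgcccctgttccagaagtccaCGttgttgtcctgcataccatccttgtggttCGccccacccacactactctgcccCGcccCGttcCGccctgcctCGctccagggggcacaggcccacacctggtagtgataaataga
Sox2: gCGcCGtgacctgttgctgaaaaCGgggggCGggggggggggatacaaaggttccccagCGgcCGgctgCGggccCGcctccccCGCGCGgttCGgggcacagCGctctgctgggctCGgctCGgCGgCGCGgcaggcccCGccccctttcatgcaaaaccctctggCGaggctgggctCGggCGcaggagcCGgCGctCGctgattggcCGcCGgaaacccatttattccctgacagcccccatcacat

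The Nanog stretch held 3 CpGs, at positions -223, -201 and -7 relative to the start. They were methylated to 76.6%, 84.2% and 75.4% in the controls and to 36.7%, 34.1% and 39.5% in the knockouts (means of 2 samples). The Pou5f1 stretch held 8 CpGs, and its mean was 14.7% and 13.7% in the controls against 19.02% and 13.9% in the knockouts. The groups overlapped there, with only knockout replicate 1 above both controls. The Tcl1 stretch held 7 CpGs, with a mean of 7.51% and 8.98% in the controls against 21.7% and 12.2% in the knockouts. Every one of those 7 had a higher mean in the knockouts, from 10.1% to 22.6% against 6.25% to 10.3%. The Sox2 stretch held 27 CpGs and was nearly free of methylation in every sample, at 1.63% and 0.984% in the controls against 1.10% and 1.07% in the knockouts. Of the other members in the RefSeq promoter table, Klf4 had 32 CpGs in the same stretch and Utf1 14. The table's start of Lin28a lies inside the gene span, downstream of the start used for the other Lin28a methylation values here. Only 1 of the 7 CpGs in the Lin28a stretch was measured.

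Among the promoters, taken as 1000 bp before to 500 bp after the start, only Nanog lost methylation past the thresholds, and the other 9 members showed no called change. A region was called when limma's adjusted p was under 0.05 and the difference reached 10 percentage points. That made 1 of 10 member promoters lower and none higher, where 45.3% of the 24314 promoters in the genome were called lower and 0.271% higher. A region with a control mean under 10% cannot lose 10 points, so it could not be called lower. The promoters of Sox2, Klf4, Utf1, Lin28a, Dppa3 and Dppa4 were such regions. The median over the members went from 8.52% to 13.1%, against 15.0% to 13.2% over all promoters, but the median of the members' own differences was 0.204 points, against -4.09 over all promoters. Their mean was 15.2% and 15.9% in the controls against 14.4% and 10.7% in the knockouts. Of the 10 members, 8 started under 20% in the controls, and in the genome 12679 promoters did. Of those 12679 promoters, 13 were called lower and 66 higher.

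Nanog, the homeodomain factor, had a methylated promoter in control germ cells (mm10, chr6:122706489-122707988, 26 CpGs). Its level was 78.0% and 84.3% in the controls against 35.3% and 34.4% in the knockouts. Both knockouts thus lay far below both controls. The mean fell by 46.3 percentage points, from 81.1% ± 4.46 to 34.8% ± 0.653 (SD, n = 2), a log2 ratio change of -2.95 ± 0.39 (SE) with a limma adjusted p of 2.72e-05. The knockouts retained 42.9% of the control level, where the median over the 8082 promoters at 80% or more was 51.2%. Each of the 26 CpGs was lower in both knockouts than in both controls, with group means of 62.1% to 96.4% in the controls and 18.7% to 56.6% in the knockouts. The call did not hold when the spread of this promoter alone was used (adjusted p = 0.0621), which has 2 residual degrees of freedom, and in that fit only 0.0658% of all promoters were called lower.

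The 3 gene promoters nearest to Nanog over the 4 samples, by Euclidean distance in percentage points among promoters with at least 10 CpGs, were LOC115489488, Gm34305 and Adam19. Their distances were 2.28, 2.29 and 2.60. Adam19, which encodes a membrane metalloprotease, had 79.5% and 85.0% in the controls against 35.3% and 36.3% in the knockouts.

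Sox2, Klf4, Utf1 and Lin28a had promoters with almost no methylation in either group. Sox2, the HMG-box partner of Pou5f1, stood at 1.41% and 0.922% in the controls against 1.29% and 1.05% in the knockouts over 99 CpGs. Klf4, a zinc finger factor whose promoter window also holds an end of the noncoding gene Gm12506, stood at 1.00% and 0.987% against 1.21% and 0.899% over 144 CpGs. Neither gene passed 2% in any sample. Utf1 gave 1.71% and 1.22% in the controls against 0.962% and 1.62% in the knockouts over 73 CpGs. Lin28a gave 2.14% and 0.899% against 1.28% and 1.61% over 32 CpGs. The groups overlapped at all of them, and the differences lay between -0.17 and 0.06 points.

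Pou5f1, Dppa2, Dppa3, Dppa4 and Tcl1 had low to intermediate promoter methylation in the controls and did not fall in the knockouts. Dppa3 stood at 7.29% and 9.56% in the controls against 16.4% and 10.05% in the knockouts, a difference of 4.81 points (adjusted p = 0.0603). Dppa4 stood at 10.002% and 7.23% against 14.5% and 11.3%, a difference of 4.29 points (adjusted p = 0.0528). Tcl1 stood at 10.7% and 12.1% against 18.5% and 14.2%, a difference of 4.996 points (adjusted p = 0.0679). At these 3 promoters both knockouts were above both controls, which was so for 7.72% of all promoters and 14.8% of those under 20% in the controls. Both knockouts were below both controls at Nanog alone, where 67.7% of all promoters had them so. Of the 12679 promoters under 20% in the controls, 5044 had both knockouts below. None of the 3 gains passed the thresholds. Pou5f1 gave 16.4% and 15.6% in the controls against 22.5% and 13.9% in the knockouts. Dppa2 gave 23.2% and 26.03% against 32.4% and 17.5%. At both genes the 2 knockouts lay on either side of the controls. Knockout replicate 1 exceeded knockout replicate 2 at 8 of the 10 member promoters, against 50.7% of all promoters and 55.0% of those under 20% in the controls, and the part of that sample in the gains was not tested. With the promoter taken from 2000 bp before the start, Dppa2 fell by 12.4 and Dppa4 fell by 14.2 points (adjusted p = 0.00237 and 1.56e-07), where 51.9% of all promoters of that width were called lower.

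**Figure D1:**
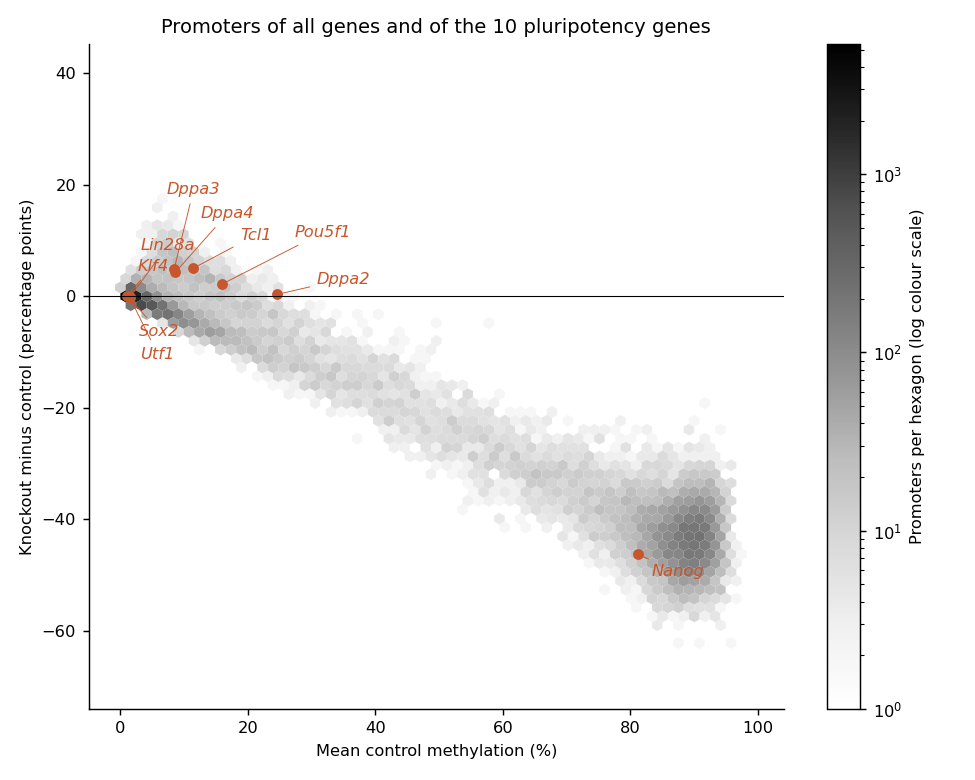
Promoter methylation in the controls (x axis, mean of 2 samples, percent) against the knockout minus control difference (y axis, percentage points) for 24314 promoters, as hexagons shaded by number on a log scale, with the 10 pluripotency genes as points. Nanog, which lost 46.3 points, lies in the group of methylated promoters, and the other 9 lie between -0.17 and 4.996 points.

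The promoters were also split at the start, a division added after the data had been seen, and the difference between the parts was not tested. After the start (500 bp), Tcl1 stood at 3.62% and 4.02% in the controls against 17.1% and 11.4% in the knockouts, and rose by 10.4 points (adjusted p = 0.00466). Dppa4 stood at 7.504% and 1.24% against 15.4% and 13.7%, and rose by 10.2 points (adjusted p = 0.0196). So 2 of 10 members were called higher there, where 0.826% of 21419 genes were, or 1.33% of those under 20% in the controls. Dppa3 went from 5.09% and 6.22% to 15.8% and 8.76%, a difference of 6.65 points (adjusted p = 0.0996). Pou5f1 went from 9.50% and 8.46% to 23.5% and 11.4%, a difference of 8.51 points (adjusted p = 0.158). Both knockouts were above both controls at these 4 genes, as at 11.9% of all genes and 19.2% of those under 20%. Dppa2 had 6.38% and 6.52% in the controls against 19.01% and 5.90% in the knockouts over 6 CpGs, so that only knockout replicate 1 was high. Before the start (1000 bp), Pou5f1 had 24.4% and 23.9% in the controls against 21.3% and 16.8% in the knockouts, and Dppa4 13.5% and 15.6% against 13.3% and 7.91%. There, both knockouts lay below both controls at these genes, as at 67.3% of genes, and neither was called.

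Both gains after the start fell under the 10-point minimum when knockout replicate 1 was left out. The difference was then 7.55 points at Tcl1 and 9.31 at Dppa4, and neither was called. Leaving out each of the other samples gave 10.2 to 13.3 points at Tcl1 and 7.04 to 13.3 at Dppa4. Without control replicate 2, Dppa4 had a difference of 7.04 points (adjusted p = 0.237), and with each region's own spread, a fit that called 0 of 21419 genes, the adjusted p was 0.127 at Tcl1 and 0.374 at Dppa4. Without knockout replicate 2, Dppa3, Dppa2 and Pou5f1 were called higher as well, by 10.2, 12.6 and 14.6 points, in a fit that called 1.51% of genes higher. Over the whole promoter, 5 of the 10 male germ cell genes were called higher (Dazl, Mael, Sycp1, Sycp3 and Asz1) and none lower, against 0.271% of all promoters called higher. In 9 of the 10 both knockouts were above both controls, against 14.8% of all promoters under 20% in the controls. The part of the cell mixture in these gains was not tested.

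The counts of single CpGs that follow are a description. The CpGs of a promoter share the same 4 libraries, and the share over all CpGs in the genome was not computed. This holds for the other counts of single CpGs and cytosines here too. After the start, both knockouts were above both controls at 10 of 19 CpGs of Tcl1, 9 of 18 of Pou5f1, 9 of 17 of Dppa3 and 6 of 13 of Dppa4. Both were below at 1 CpG of Tcl1 and at none of the others. Before the start, 7 of 16 CpGs of Pou5f1 had both knockouts below and 3 had both above. At Tcl1 4 of 22 had both below and 9 had both above, and at Dppa4 2 of 8 had both below and 2 both above. The 10 Tcl1 CpGs nearest upstream, from -43 to -368, all had a higher knockout mean, by 3.31 to 16.5 points, so at Tcl1 the higher values were not limited to the bases after the start. The Pou5f1 CpGs before the start reached 65.5% in the controls, and none there was over 33.7% in the knockouts.

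**Figure D2:**
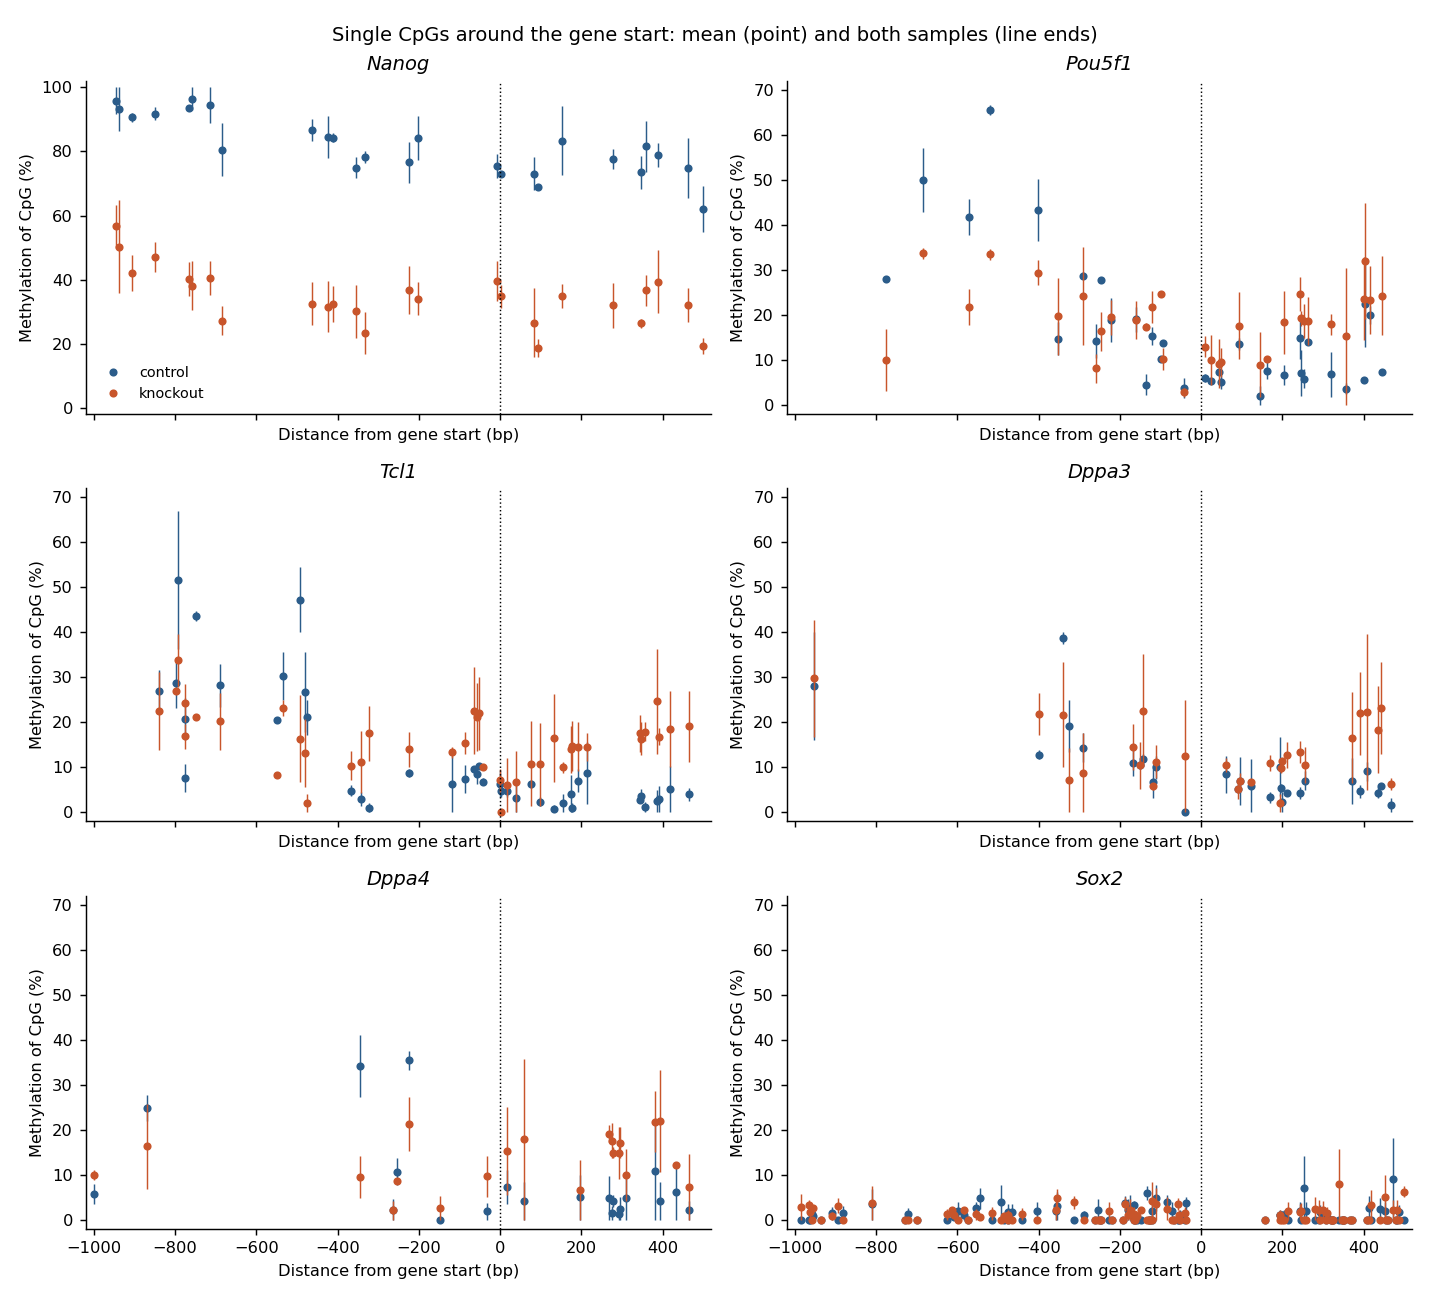
Methylation of single CpGs (y axis, percent, running higher for Nanog than for the others) by distance from the gene start (x axis, bp, dotted line at the start) for 6 of the genes, with the mean of the 2 controls or the 2 knockouts as a point and both samples as the ends of its line. All 26 Nanog CpGs are lower in the knockouts, those of Tcl1, Dppa3, Dppa4 and Pou5f1 after the start mostly have higher knockout means, and those of Sox2 stay near 0.

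Farther upstream, more than 1000 and up to 5000 bp before the start, 9 of 10 members were called lower. Both knockouts were below both controls at all 10. In the genome 93% of distal upstream parts were called lower and 98.6% had both knockouts below, so the count is near the background. Dppa2 had the highest distal level, 87.1% and 94.9% in the controls against 49.2% and 45.6% in the knockouts. Its loss of 43.5 points was the largest of the 10. Dppa4, its partner and neighbour on chromosome 16, had 74.7% and 77.6% against 29.0% and 38.7%, a loss of 42.3 points. Pou5f1 had 71.4% and 78.5% against 39.6% and 35.7%, and this stretch overlaps the noncoding gene Gm32362. These genes with low promoters thus lay beside DNA that was highly methylated in the controls and well below that in the knockouts.

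Dppa3 had 66.6% and 70.9% in the controls against 32.0% and 39.4% in the knockouts at its distal part. Lin28a had 52.8% and 53.3% against 29.2% and 27.3%. Nanog had 40.8% and 43.1% against 21.4% and 22.8%, below its own promoter in the controls. The Nanog stretch was mixed: the window about 5 kb upstream was at 1.96% and 2.36% in the controls, whereas the one about 3 kb upstream was at 84.6% and 95.4%. Utf1 had 36.4% and 36.5% in the controls against 22.8% and 22.3% in the knockouts, over DNA that includes an end of Kndc1. Tcl1 had 30.1% and 35.5% against 20.7% and 21.5%. Klf4 had 29.4% and 30.4% against 17.2% and 18.8%. Losses at these 3 genes were 13.9, 11.7 and 11.9 points, from control levels under 40%. Without control replicate 2 the Tcl1 loss was 9.05 points and no longer called. Sox2 was the member not called, with 10.6% and 12.1% in the controls against 3.13% and 4.45% in the knockouts, a difference of -7.56 points that fell short of 10 points (adjusted p = 6.97e-22). That p-value rests on a spread shared over the distal parts of the genome, not on the spread of this region. On each sample's own cytosines the Sox2 difference was -16.3 points and was called. Sox2 lies inside the noncoding gene Sox2ot, so its flanks are also part of that gene. The 9 members at 20% or more retained 44.4% to 64.2% of the control level, with a median of 52.6% against 52.7% over all genes.

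Gene bodies, from the end of the promoter window (500 bp after the start) to the gene end, fell at 7 of 10 members, where 92.2% of 24731 bodies were called lower and 0.0526% higher. Nanog had the highest body level, 84.9% and 91.7% in the controls against 42.8% and 45.5% in the knockouts. Its loss of 44.1 points was close to that of its promoter. Pou5f1 had 75.9% and 81.0% in the controls against 37.4% and 38.1% in the knockouts, a loss of 40.6 points beside a promoter that did not fall. Dppa4 had 82.0% and 82.9% against 44.9% and 43.0%. Dppa2 had 78.4% and 83.4% against 44.6% and 41.2%. Both members of the pair thus lost nearly 40 points in the body. Tcl1 had 66.1% and 70.2% against 39.6% and 37.6%. Lin28a had 45.7% and 49.3% against 21.2% and 23.4%. Klf4 had 22.7% and 25.7% against 12.8% and 11.9%. In all these 7 genes both knockouts were below both controls, as in 96.8% of all bodies, and the knockouts retained 47.0% to 56.7% of the control level, where the median over all bodies was 54.3%.

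The bodies of Sox2, Utf1 and Dppa3 did not fall. Sox2 is a gene with a single exon, and its body stood at 1.08% and 0.924% in the controls against 0.933% and 0.957% in the knockouts. Utf1 stood at 3.23% and 1.57% against 2.44% and 2.79%. Both are short genes that lie inside their low stretch. Dppa3 stood at 9.87% and 8.60% in the controls against 16.005% and 10.9% in the knockouts. Both knockouts were above, and the difference of 4.21 points had an adjusted p of 0.00126 but was under the minimum of 10 points. That p-value rests almost wholly on a spread shared over all bodies. Among bodies under 20% in the controls, 16.7% had both knockouts above.

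Past the gene end, over 5000 bp, 9 of 10 members were called lower, where 92.2% of 25443 downstream flanks were. Both knockouts were below both controls at all 10, as at 99.1% of all flanks. Losses at those 9 ran from 11.3 points at Lin28a to 48.3 at Nanog. The Nanog flank had 86.0% and 88.0% in the controls against 36.8% and 40.5% in the knockouts. Tcl1, with 85.3% and 90.9% against 39.1% and 43.2%, had the next largest loss. Sox2 again was not called, with 15.8% and 19.3% in the controls against 7.34% and 7.81% in the knockouts. Its difference of -9.96 points lay just under the minimum, and it was called without control replicate 1 (-11.7 points) and without knockout replicate 2 (-10.2 points). The flanks of Pou5f1, Utf1 and Lin28a overlap Tcf19, Gm16201 and Dhdds.

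**Figure D3:**
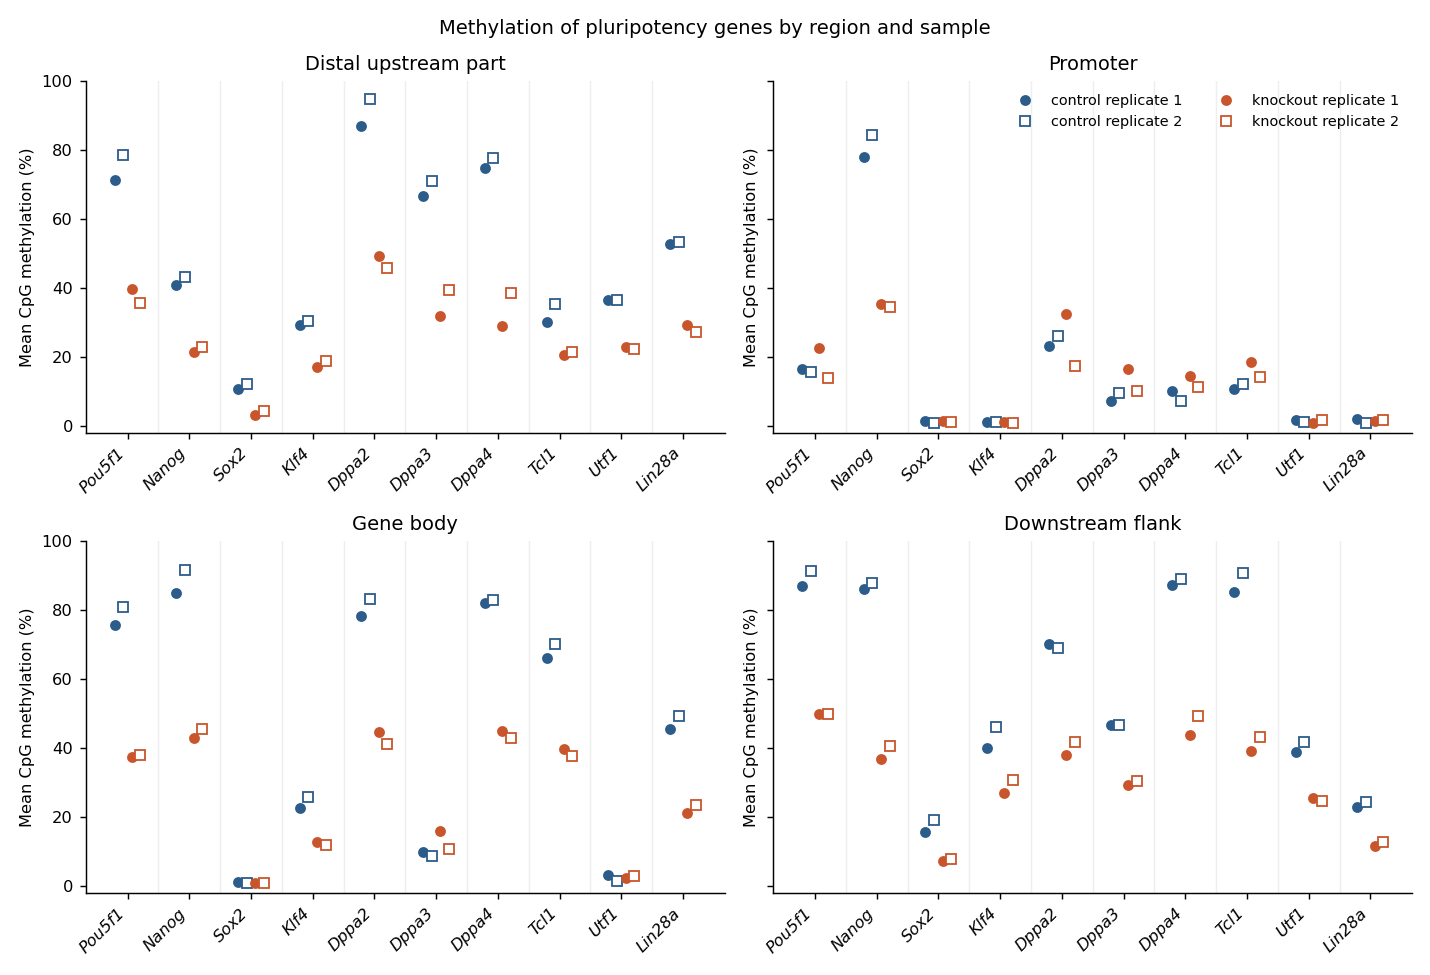
Mean CpG methylation (y axis, percent) of the distal upstream part, promoter, gene body and downstream flank of each of the 10 genes (x axis), with one symbol per sample. In the distal and downstream panels every knockout symbol lies below both controls of its gene, and in the promoter panel this holds for Nanog only.

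The windows of 1 kb give the same loci at finer scale. Of the 171 member windows, 128 were called lower and 1 higher, where 93.4% of all windows were called lower and 0.137% higher. With each window's own spread alone, 78 of the 171 were called lower, against 54.9% of all windows. The outcome followed the control level. All 91 windows at 80% or more in the controls were called lower, as were 99.9% of such windows in the genome, with medians of 89.1% and 45.05%, and they retained a median of 52.0%, against 52.6% over the 1235463 such windows in the genome. Of the 42 windows from 20% to 80%, 37 were called lower (88.1%, against 87.1% in the genome). Of the 38 windows under 20%, none was called lower and 1 higher, against 0.729% and 3.05% of such windows in the genome. In 9 of the 38 both knockouts were above both controls, against 26.8%. The 5 windows at 20% or more that were not called lay at Klf4, Pou5f1, Dppa3 and, with 2 windows, Tcl1.

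The low stretch around the start differed in width between the genes. Counting unbroken windows under 20% in the controls, it spanned 7 windows at Sox2, 4 at Klf4 and at Lin28a, 3 at Dppa3 and at Utf1, 2 at Dppa4, and 1 at Pou5f1, Tcl1 and Dppa2. Nanog had none. At Dppa3 it ran into the gene, where the window centred about 2 kb past the start had 5.55% and 4.11% in the controls against 14.6% and 12.6% in the knockouts. That difference of 8.76 points (adjusted p = 0.000249) was under the 10-point minimum. For Dppa2, Dppa3 and Dppa4, whose strand was taken from general knowledge, the low stretch lay at the end of the gene that this strand makes the start.

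**Figure D4:**
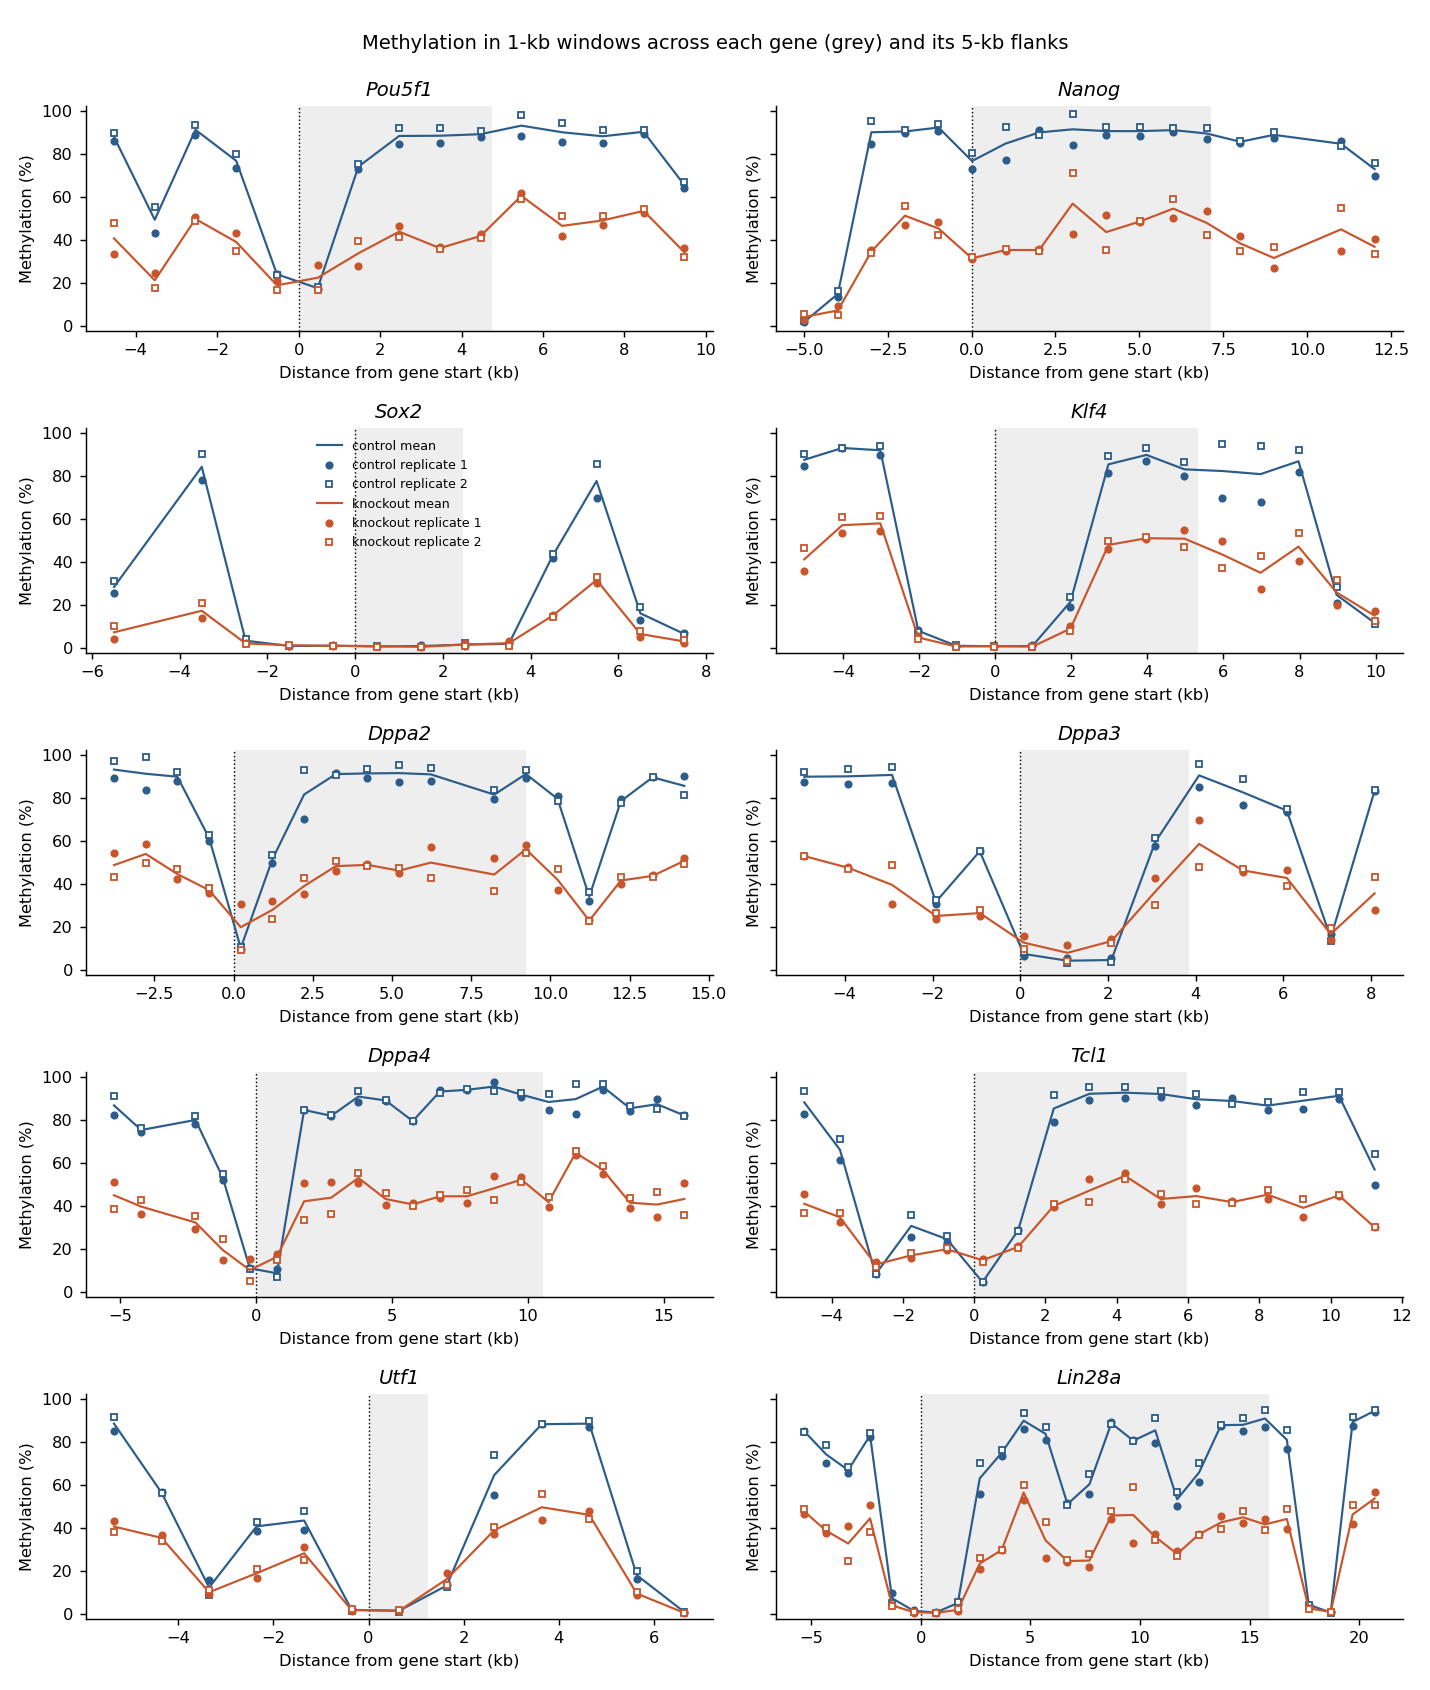
Methylation (y axis, percent) of 1-kb windows by distance of the window centre from the gene start (x axis, kb, positive into the gene) for each of the 10 genes, with the gene span in grey, both samples of each group as symbols and the group mean as a line. The knockout line runs below the control line wherever the controls are at 80% or more, lies close to it around the start of Sox2, Klf4, Utf1 and Lin28a, and lies above it in the low windows of Tcl1 and Dppa3.

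The largest loss of any member window was at Sox2, about 3.5 kb before the start (chr3:34646001-34647000, 6 CpGs). It had 78.0% and 90.3% in the controls against 13.9% and 21.0% in the knockouts, a loss of 66.7 points (adjusted p = 1.77e-05). Only 20.8% of the control level was retained, and all 8 measured cytosines were lower in both knockouts. Of the windows at 80% or more in the genome, 0.0389% lost as much. The next 4 were at Nanog (chr6:122716001-122717000, chr6:122704001-122705000 and chr6:122709001-122710000) and Pou5f1 (chr17:35509001-35510000), with losses of 57.1, 55.3, 54.5 and 52.1 points. Losses at least as large as these were found in 1.27%, 2.28%, 2.91% and 6.1% of the windows at 80% or more. The 5 smallest differences, from -0.09 to 0.06 points, were in windows at Klf4, Utf1 and Sox2 with 1.02% to 2.12% in the controls.

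The window called higher was at the start of Tcl1 (chr12:105222001-105223000, 34 CpGs). It had 4.94% and 4.63% in the controls against 15.6% and 14.3% in the knockouts, a rise of 10.2 points (adjusted p = 8.61e-05). Of its 63 measured cytosines, 29 had both knockouts above both controls and 1 had both below. Gains at least as large were found in 3.02% of the windows under 20% in the controls. The rise was just over the 10-point minimum, and it was 9.54 points without knockout replicate 1, 9.93 points on each sample's own cytosines and 9.77 points averaged by CpG, none of them called.

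CpG content varied with the level. The 28 member windows with 20 or more CpGs had medians of 3.32% and 2.64% in the controls and the knockouts. The 74 windows with 3 to 9 CpGs had medians of 86.7% and 43.9%. Spearman's rho between the number of CpGs and the control level was -0.56 over the 171 windows and -0.07 over all windows. The windows share libraries and neighbours, so this is a description. In the RefSeq promoter table, from 250 bases before to 50 after the start, Nanog had 4 CpGs, below the median of 7 over all 26793 promoters, and the other 6 members present had 10 to 40. GGGCGG, searched on both strands as were all motifs, was found in those 6 and not in Nanog, and in 36.2% of all promoters. CCAAT was found in Pou5f1 and Sox2 (38.2% of all), CACGTG and TTCCCGC in Klf4 (7.3% and 4.71%) and ACAAAG in Sox2 (18.8%). TATAAA and ATGCAAAT were found in none of the 7 (14.2% and 1.78%). The 10 CpGs and the motifs of Lin28a were taken at the start in the RefSeq promoter table, inside the gene span.

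Of 25 other genes of the pluripotency network, 14 promoters could be tested, and 2 of them fell. Esrrb, an orphan nuclear receptor, had 64.8% and 66.3% in the controls against 30.1% and 27.7% in the knockouts, a loss of 36.6 points (adjusted p = 3.18e-05). Nr5a2, another nuclear receptor, had 81.0% and 94.5% against 44.1% and 47.5% over 5 CpGs, and fell by 41.97 points (adjusted p = 0.000211). These were the most methylated of the 14 in the controls, as Nanog was among the 10. The other 12 had control means under 10%, so none could lose the 10 points that a call needs. Zfp42 (Rex1), a zinc finger protein, came next with 8.36% and 10.9% in the controls against 14.2% and 16.9% in the knockouts, a difference of 5.87 points (adjusted p = 0.0186) that was under the minimum. Nodal, a ligand of the TGF-beta family, had 8.71% and 10.5% against 7.85% and 4.11%. Of the 14, 12 were under 20% in the controls. None of the 14 was called higher, and the 2 called lower compare with 45.3% of all promoters and 13 of the 12679 under 20%. At 3 of the 14 both knockouts were above both controls and at 6 below. That was so for 7.72% and 67.7% of all promoters, and for 1871 and 5044 of the 12679 under 20%. The list median was 3.12% in the controls and 2.45% in the knockouts.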

How the data were processed

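Genomic methylation was measured in 2 control and 2 knockout samples. The authors deposited 1 table of percent methylation per CpG cytosine, both strands listed, on mm10 per the submitters' processing notes. Its name speaks of 10 reads, but no count of methylated reads or coverage is given with the values, so a test on counts was not possible. Aligner and caller: not given in the sources used here. Of 37230585 lines, 1 named no position and was dropped. Between 28999710 and 29774194 cytosines had a value in each sample. All of 89579 cytosines listed within RefSeq promoter sequences of 3 chromosomes sat on a CpG of the sequence, which checked the build.

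A region's level is the mean over cytosines with a value in all 4 samples, with at least 3 CpGs. Gene spans came from RefSeq. Strand came from the RefSeq promoter table for 7 members and from general knowledge for 3 (Dppa2, Dppa3 and Dppa4). Chromosomes 1 to 19 and X were used. Levels m were compared as log2((m + 0.01)/(1 - m + 0.01)) with limma 3.58.1 in R 4.3.3 (trended, robust prior variance), fitted over all regions of a kind, with p-values adjusted by Benjamini-Hochberg over all of them. The prior was worth a median of 13.0 degrees of freedom at promoters and 15.6 at windows, and at 93.5% to 96.8% of the other regions it replaced their own spread. Calls needed adjusted p under 0.05 and 10 points. The statistics were tested on simulated data. Python 3.11.15 and NumPy 2.4.6 were used otherwise.

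The members and lists were chosen with earlier results of these data known. Named were all members, the 5 windows with the largest and the 5 with the smallest difference, windows called higher, called promoters and the 4 most methylated of the other network list, and the 3 promoters nearest to Nanog. Windows, flanks or motifs with values beyond this rule were named after their values were seen. Of the other network list, 11 genes were not analysed here for lack of a strand or of CpGs. Alternatives changed the transform, variance, minimum CpGs, cytosines, averaging, minimum difference, promoter width and window placement, left out each sample, or used a replicate block.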

Additional observations from a re-analysis of the deposited data

How the results depend on the processing

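The main limit is 2 samples a group, with calls that rest on a spread shared across regions. With each region's own spread alone, 0 of 10 member promoters were called lower (Nanog promoter adjusted p = 0.0621) and 78 of 171 member windows, against 0.0658% of all promoters and 54.9% of all windows. With the promoter from 2000 bp before the start, 3 promoters were called lower, against 51.9% of all, and Dppa4 (-14.2 points) and Dppa2 (-12.4 points) reversed. With the 500 bp after the start only, an alternative chosen after seeing the data, 2 promoters were called higher, against 0.826% of all. A 20-point minimum left 5 distal upstream parts and 5 downstream flanks called lower and 0 windows called higher. With no minimum, 1 gene body (Dppa3) and 5 windows were called higher. The shares of all regions called with these changed minimums are not given here, so the counts cannot be set against a background. With at least 10 CpGs, 97 windows were tested and 57 called lower, against 85.3% of all such windows. The single window called higher, at Tcl1, was not called on each sample's own cytosines or on means over CpGs. Those fits called 0 member windows higher, against 0.102% and 0.135% of all windows. With windows shifted by 500 bp 0 were called higher as well, and the share of all windows is not given here. Without knockout replicate 1 the Tcl1 window rose by 9.54 points, under the minimum. The cause of these changes was not tested, beyond the fewer regions or stricter minimum that an alternative sets. Of 821 values for single genes or windows under the alternatives, 793 kept their side of the threshold, among them 34 differences that were not called and changed sign, 17 lost and 9 gained the call and 2 reversed. The Nanog promoter difference lay between -49.4 and -43.1 points across the fits that left out 1 sample each.

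The replicate numbers do not state a pairing, and same-numbered samples deviated together only weakly (correlations of 0.0270 to 0.1000 over 5 kinds of region). With the replicate block, the calls lower were 1 promoter, 9 distal upstream parts, 7 gene bodies, 9 downstream flanks and 128 windows, and 1 window was called higher, the same counts as without it. In that fit 45.4% of all promoters, 93.1% of distal upstream parts and 92.3% of gene bodies were called lower. So were 92.2% of downstream flanks and 93.6% of windows, and 0.146% of windows were called higher.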
